A study of Mus musculus with 4 samples.

Results

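The D-type cyclins, the kinases they activate, the inhibitors of those kinases and the retinoblastoma gene were examined in the dorsal cortex of E18.5 mouse embryos (E, embryonic day). Genes were taken by symbol from a list of 10, through array features annotated with a single gene symbol, and where a gene had several such features the one with the highest mean over the arrays was used. This gave 9 of the 10 genes, among 19938 genes with a single-symbol feature in all: Ccnd1, Ccnd2, Ccnd3, Cdk4, Cdk6, Cdkn1b, Cdkn1c, Cdkn2c and Rb1. The feature for Cdkn1a (p21) also carries a second gene symbol, so Cdkn1a was not analysed here. Of these 19938 genes, the 13956 with a mean log2 level of at least 6.16 (the 30th percentile) were tested. All 9 were among them, and each lay above that level in both groups.

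The series holds 4 arrays, 2 per group. Control embryos carried the genotype Mek1fl/wt, Mek2-/-, so they lacked Mek2 and kept a wild-type copy of Mek1. Mutant embryos carried Mek1fl/fl, Mek2-/- and NestinCre, a transgene that drives Cre recombinase in neural progenitors and is inherited by the neurons and glia they form. Both groups therefore lacked Mek2 by label, although the series text calls the controls WT, and NestinCre is named for the mutants alone, so an effect of the transgene and the loss of Mek1 cannot be told apart. Nothing in the labels gives a litter or a batch. MEK1 and MEK2 are the kinases that activate ERK1 and ERK2. Values are the authors' log2 expression after RMA. Each limma p-value sets a difference against the spread between these samples within a group, drawn toward a value shared by all genes tested.

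D-type cyclins link growth factor signalling to cell division. They bind CDK4 or CDK6, and the complex phosphorylates the retinoblastoma protein RB, which then releases E2F transcription factors to switch on genes of DNA replication. INK4 inhibitors such as p18 (Cdkn2c) bind CDK4 and CDK6 themselves, whereas CIP/KIP inhibitors such as p27 (Cdkn1b) and p57 (Cdkn1c) bind cyclin-CDK complexes. RAS to ERK signalling is a well known inducer of Ccnd1 transcription. In the embryonic cortex, radial glia and intermediate progenitors divide, and their neuronal daughters leave the cell cycle.

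The targeted gene did not pass the test, although both mutants lay under both controls, by 0.03. Map2k1 (Mek1) was at 8.76 and 8.84 in controls and at 8.50 and 8.73 in mutants, a difference of -0.19 ± 0.09 (SE; adjusted p = 0.469 in limma). Map2k2 (Mek2), null by label in both groups, was at 8.57 and 8.47 in controls and 8.57 and 8.64 in mutants. Which probes of either feature lie in the deleted parts is not known here, so neither feature checks the labels. The 8 projection neuron markers measured had a mean log2 level between 10.04 and 10.17 on the 4 arrays. The mean of the 10 radial glia markers lay between 9.22 and 9.97, and that of the 7 interneuron markers between 9.62 and 9.91. Levels of different features do not rank cell types, so these values do not check the tissue label. Markers at or under the level of the filter included Aqp4 and S100b of astrocytes, Aif1 and P2ry12 of microglia, and Kcnj13 and Otx2 of choroid plexus. The medians of the 4 arrays over all features lay between 7.11 and 7.13, and over the genes tested they were 8.52 on both controls, 8.46 on mutant 1 and 8.53 on mutant 2. With these medians centred, Ccnd2 and Cdkn2c were still called (adjusted p = 0.0155 and 0.0279 in limma).

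Among the 9 genes, Ccnd2 and Cdkn2c were lower in the mutants past the threshold, and no gene was higher past it. Ccnd2 (cyclin D2) fell 2.26-fold and Cdkn2c, which encodes p18, fell 1.60-fold. Ccnd1 (cyclin D1) was 1.68-fold lower without passing the test. Ccnd3, Cdk4, Cdkn1b and Rb1 differed by at most 0.08 on the log2 scale, and Cdk6 and Cdkn1c lay between, at -0.27 and 0.15. The threshold for a call was an adjusted p of 0.05 in limma (Benjamini-Hochberg over the 13956 genes tested). Over all of these, 1.01% were called lower and 0.0143% higher, beside 2 and 0 of the 9 genes here. At an unadjusted p under 0.05, 3 of the 9 were lower and 1 was higher, beside 1073 lower and 799 higher of the 13956 genes tested. The median difference over the 9 genes was -0.08, against 0.01 over all genes tested.

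**Figure D1:**
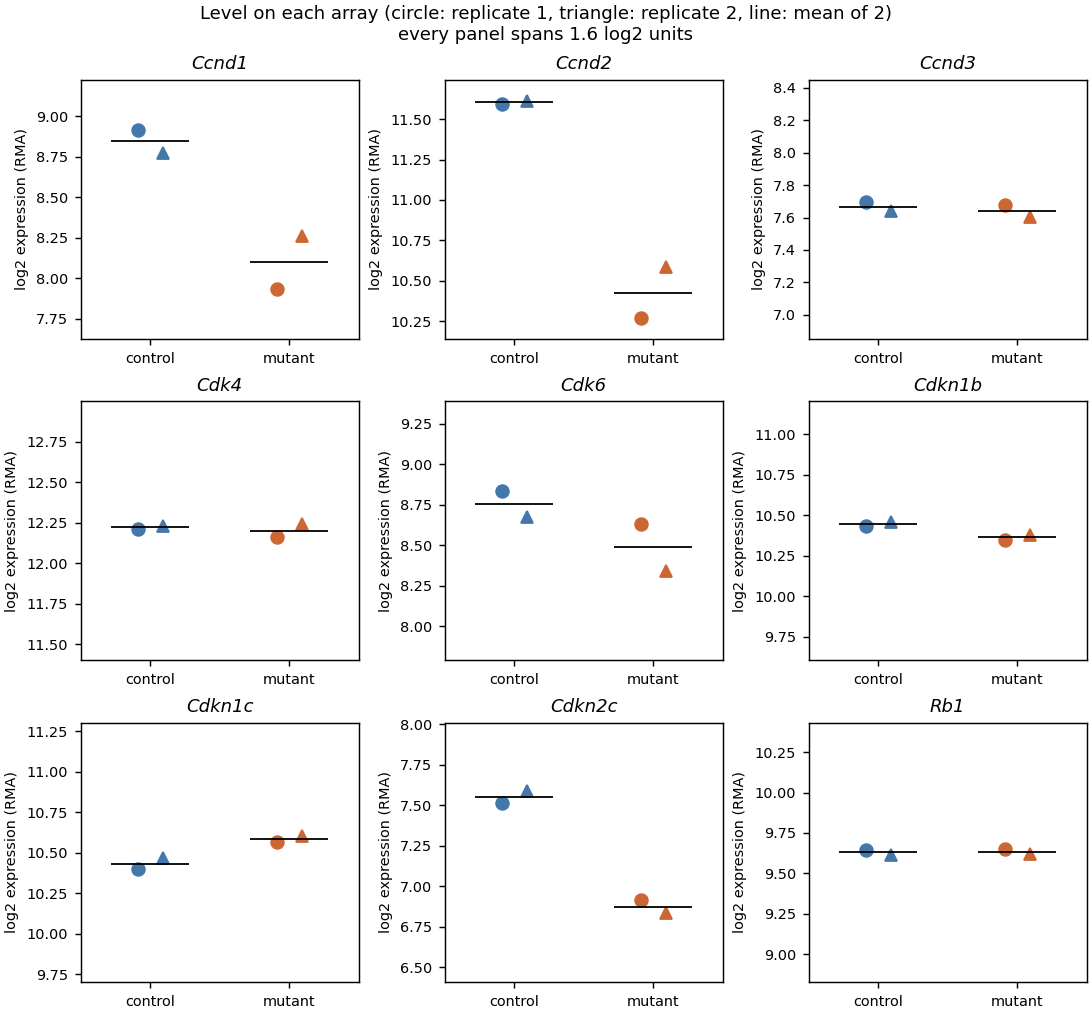
Log2 expression (RMA) of the 9 genes on each of the 4 arrays, 1 panel per gene, with every vertical axis spanning 1.6 log2 units. Circles are replicate 1, triangles replicate 2, and lines the mean of 2 arrays. Ccnd1, Ccnd2 and Cdkn2c show a clear step between the groups, while the Ccnd3, Cdk4 and Rb1 points overlap.

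Of the 9 genes, cyclin D2 showed the widest gap between the groups, 1.01 on the log2 scale. Ccnd2 read 11.60 and 11.61 in the controls, and 10.27 and 10.58 in the mutants. The control arrays were nearly identical, the mutant arrays lay well below both, and mutant 1 was the lowest. The group means were 11.60 ± 0.01 and 10.43 ± 0.22 (SD, n = 2 each), a difference of -1.18 ± 0.11 (SE), with a 95% interval of -1.45 to -0.90 (adjusted p = 0.0254 in limma). That interval corresponds to a level 1.86-fold to 2.74-fold lower. In whole tissue, a smaller number of cells of a type and less RNA per cell cannot be told apart.

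Cyclin D1 went the same way with more spread. Ccnd1 read 8.91 and 8.78 in the controls, and 7.94 and 8.26 in the mutants. Both mutant arrays were below both controls by at least 0.51, and mutant 1 was again the lower of the pair. The difference was -0.75 ± 0.12 (SE; 95% interval -1.05 to -0.44), which missed the threshold (adjusted p = 0.0790 in limma). It passed with an intensity trend in the variance prior (adjusted p = 0.0381) but not with all array features in the test (0.411). Its difference was -0.58 without mutant 1, -0.91 without mutant 2, -0.68 without control 1 and -0.82 without control 2. A fit without a mutant array takes its residual spread from the 2 controls alone, so a pass there is not read as support.

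Cyclin D3 showed no such step. Ccnd3 read 7.70 and 7.64 in the controls, and 7.68 and 7.60 in the mutants. The groups overlapped, and the difference was -0.03 ± 0.06 (SE; 95% interval -0.18 to 0.13; adjusted p = 0.906 in limma). To set the D cyclins against each other, the log2 value of Ccnd3 was subtracted from that of Ccnd2 and of Ccnd1 on the same array, a choice made after the values were seen. The Ccnd2 minus Ccnd3 difference was 3.90 and 3.97 on the control arrays and 2.59 and 2.98 on the mutant arrays, a shift of -1.15. The Ccnd1 minus Ccnd3 difference was 1.22 and 1.14 on the control arrays and 0.26 and 0.66 on the mutant arrays, a shift of -0.72. Neither set of values overlapped between the groups, and a two-sided exact permutation test gave p = 0.333 for each, the smallest that 2 against 2 arrays allow.

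Neither partner kinase passed the test. Cdk4 read 12.21 and 12.23 in the controls, and 12.16 and 12.24 in the mutants, so that the mutants enclosed the controls. Its difference was -0.02 ± 0.06 (SE; 95% interval -0.17 to 0.13; adjusted p = 0.921 in limma). Cdk6, the other D cyclin partner, read 8.84 and 8.68 in the controls, and 8.63 and 8.34 in the mutants. Here mutant 2 was the lowest array, the reverse of the order in Ccnd1 and Ccnd2, and mutant 1 lay 0.04 under the lower control. The difference of -0.27 ± 0.12 (SE; 95% interval -0.56 to 0.02) did not pass (adjusted p = 0.412 in limma).

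**Figure D2:**
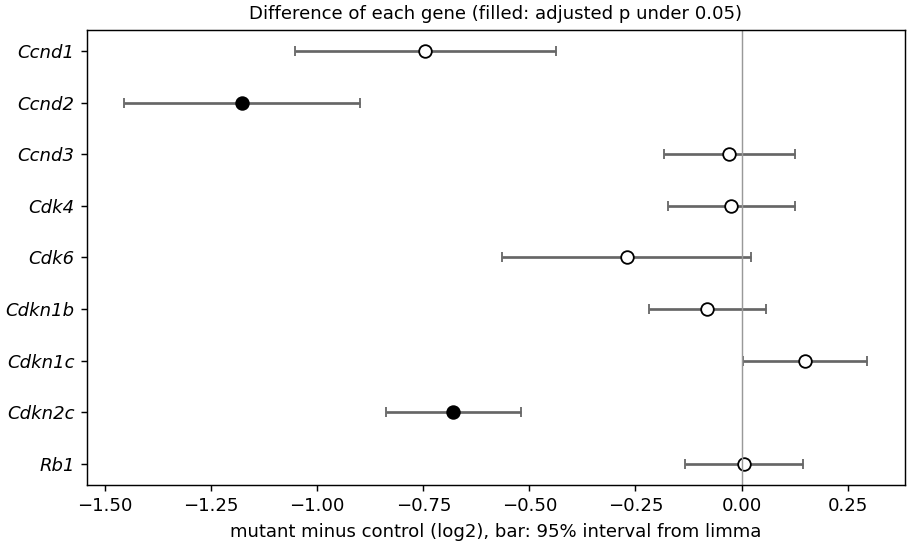
Difference of each gene in log2 units, mutant minus control, and its 95% interval from limma (2 arrays per group). Filled points passed at an adjusted p under 0.05. Ccnd2 (-1.18) and Cdkn2c (-0.68) are filled, Ccnd1 (-0.75) is open, and the intervals of Ccnd3, Cdk4, Cdk6, Cdkn1b and Rb1 include 0.

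Among the inhibitors, the INK4 gene Cdkn2c fell. Cdkn2c, whose product p18 blocks CDK4 and CDK6, read 7.52 and 7.59 in the controls, and 6.91 and 6.83 in the mutants. Both mutants lay at least 0.60 below both controls, and the arrays of each group were within 0.08 of each other. The difference was -0.68 ± 0.06 (SE; 95% interval -0.84 to -0.52; adjusted p = 0.0251 in limma), a level 1.43-fold to 1.79-fold lower.

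The other INK4 genes did not pass. Cdkn2d (p19), named after its value was seen, read 8.99 and 9.06 in the controls, and 9.22 and 9.29 in the mutants. Both mutants were above both controls, with a difference of 0.23 ± 0.06 (SE; 95% interval 0.07 to 0.38; adjusted p = 0.221 in limma). On the same array, the Cdkn2c minus Cdkn2d difference was -1.47 on each control and -2.30 and -2.45 on the mutants, a shift of -0.91. The exact permutation p of this shift, also chosen after the values were seen, was 0.333, and 3 such pairs of genes were compared in all. Cdkn2a and Cdkn2b, the remaining INK4 genes, likewise chosen after their values were seen, showed differences of -0.07 and -0.02 (adjusted p = 0.708 and 0.925 in limma).

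The calls of Ccnd2 and Cdkn2c were lost in limma when either control was left out. Their differences were then -1.19 and -0.71 without control 1, and -1.17 and -0.64 without control 2. A fit without a control array takes its residual spread from the 2 mutants alone. Ccnd2 and Cdkn2c also missed the threshold when dim genes were kept (adjusted p = 0.0686 and 0.0713 in limma) and with all array features in the test (0.269 for both). A block that joins arrays of like Xist level, control 1 with mutant 2 and control 2 with mutant 1, which was added after seeing the data, also ended both calls (0.0540 and 0.0549). Their differences stayed between -1.33 and -1.02 for Ccnd2 and between -0.72 and -0.64 for Cdkn2c over all alternatives run. The highest adjusted p over those alternatives was 0.269 for both genes.

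Neither CIP/KIP gene measured passed the test. Cdkn1b, whose product p27 restrains CDK2 and is known for holding postmitotic cells out of the cycle, read 10.43 and 10.46 in the controls, and 10.35 and 10.38 in the mutants. Both mutants were just under both controls, by 0.05, and the difference of -0.08 ± 0.05 (SE; 95% interval -0.22 to 0.06) did not pass (adjusted p = 0.606 in limma). A second, dimmer feature for Cdkn1b differed by -0.05. Cdkn1c, whose product p57 is known for cell cycle exit in the developing cortex, read 10.40 and 10.46 in the controls, and 10.56 and 10.60 in the mutants. It was the one gene of the 9 with both mutants above both controls, by 0.10. The difference was 0.15 ± 0.06 (SE; 95% interval 0.0035 to 0.30; adjusted p = 0.366 in limma).

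Rb1 encodes the pocket protein that the D cyclin kinases phosphorylate. It read 9.65 and 9.61 in the controls, and 9.65 and 9.62 in the mutants. The groups overlapped, with a difference of 0.01 ± 0.06 (SE; 95% interval -0.13 to 0.14; adjusted p = 0.981 in limma). In all, 6 of the 9 genes had groups without overlap, 5 lower and 1 higher in the mutants, where 21.4% of all genes tested were apart with the mutants lower and 22.8% with the mutants higher.

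RefSeq promoter windows (build GRCm38.p6), from 250 bases before to 50 bases after a start site, matched 6 of the 10 listed genes. Those of Cdkn2c, the called gene with an entry, and of Cdk4, a partner kinase whose interval includes 0, are shown to set a gene that fell beside one that did not pass the test. Cdkn2c has a window at chr4:109666707-109667006, minus strand, and another at chr4:109665323-109665622, minus strand. The Cdk4 window lies at chr10:127063285-127063584, plus strand. Capitals mark the E-box CACGTG, the letters bound by Myc with Max, which reads the same on both strands.
Cdkn2c, first window: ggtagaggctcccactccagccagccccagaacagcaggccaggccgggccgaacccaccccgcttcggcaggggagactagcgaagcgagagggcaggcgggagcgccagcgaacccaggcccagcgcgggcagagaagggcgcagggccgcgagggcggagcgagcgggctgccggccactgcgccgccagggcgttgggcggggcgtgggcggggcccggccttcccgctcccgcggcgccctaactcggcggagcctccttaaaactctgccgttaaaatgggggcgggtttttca
Cdkn2c, second window: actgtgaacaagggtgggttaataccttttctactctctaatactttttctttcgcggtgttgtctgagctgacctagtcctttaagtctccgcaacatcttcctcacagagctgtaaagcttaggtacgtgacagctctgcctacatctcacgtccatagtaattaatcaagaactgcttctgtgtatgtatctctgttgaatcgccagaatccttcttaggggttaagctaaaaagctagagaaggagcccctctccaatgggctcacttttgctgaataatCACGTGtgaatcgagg
Cdk4: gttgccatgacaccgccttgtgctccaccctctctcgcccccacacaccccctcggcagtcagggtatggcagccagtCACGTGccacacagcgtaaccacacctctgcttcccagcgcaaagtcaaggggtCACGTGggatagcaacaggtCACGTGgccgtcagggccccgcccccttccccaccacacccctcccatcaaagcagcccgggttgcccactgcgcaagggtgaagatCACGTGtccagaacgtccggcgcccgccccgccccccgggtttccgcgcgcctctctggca

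The Cdk4 window holds 4 E-boxes, which begin at bases -172, -118, -98 and -11 from the start site. The second Cdkn2c window holds 1, beginning 35 bases into the transcript, and the Cdk6 window holds 1 at base -220. The 7.15% of 32817 windows of this length that hold an E-box give the background. E2F letters (TTTCCCGC, TTTCGCGC, TTTGCCGC or TTTGGCGC, on either strand) were in none of the 9 windows of the listed genes and in 2.26% of all windows. These matches describe the letters in the windows.

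The rest of the pathway was read from 6 lists of other genes, of which 99 of 106 were tested. Over these 99 genes, 5 fell and 1 rose past the threshold, and 45 were apart with the mutants lower against 14 with the mutants higher. Of all genes tested, 1.01% were called lower and 0.0143% higher. Those apart made up 21.4% with the mutants lower and 22.8% with the mutants higher. The median difference over the 99 genes was -0.06. In the list of other G1/S cyclins and kinases, 1 of 11 fell, none rose and 10 did not pass, with a median difference of -0.20. The gene that fell was Ccna2 (cyclin A2, a partner of CDK2 and CDK1 in S phase and mitosis). Ccna2 read 8.98 and 8.94 in the controls and 8.04 and 8.26 in the mutants, a 1.76-fold lower level (adjusted p = 0.0278 in limma). Cdk1, the mitotic kinase, read 8.41 and 8.31 in the controls and 7.50 and 7.86 in the mutants, and did not pass (difference -0.68, adjusted p = 0.103 in limma). The Cdk1 difference was -0.50 without mutant 1 and -0.86 without mutant 2, and its adjusted p was 0.438 with all array features in the test. Cdk2, the partner of cyclins E and A, named after its value was seen, differed by -0.57 (adjusted p = 0.187). Its difference was -0.78 without mutant 2 and -0.37 without mutant 1, and its adjusted p was 0.521 with all array features in the test.

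**Figure D3:**
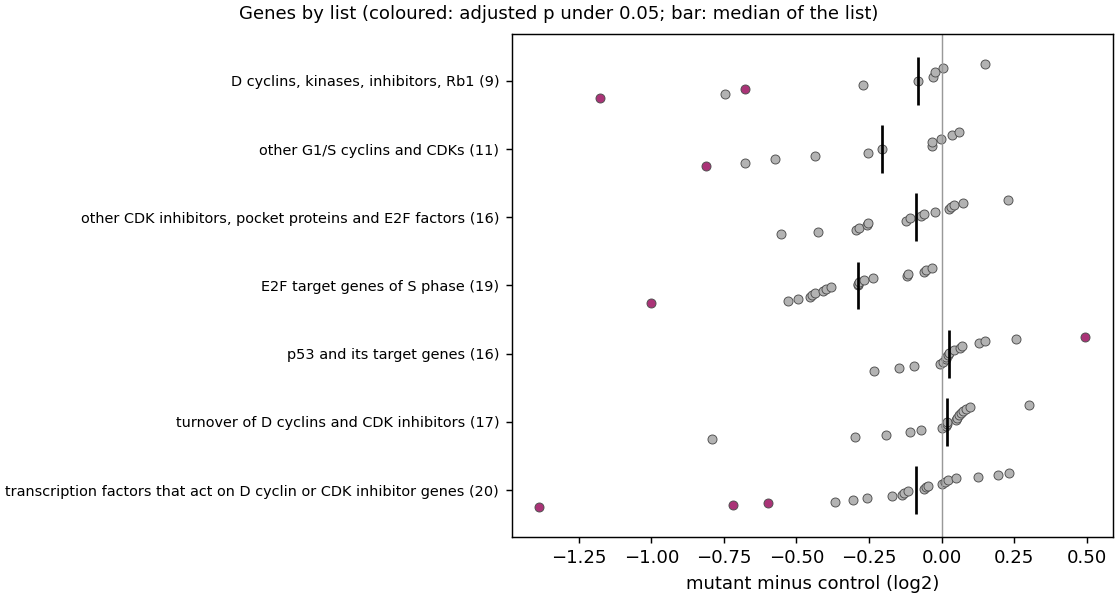
Difference of each tested gene, mutant minus control on the log2 scale, for the 9 genes and the 6 other lists, with the number of genes in brackets. Coloured points passed at an adjusted p under 0.05 and black bars are list medians. The E2F target genes lie to the left of 0 without exception, while the p53 and turnover lists are centred near 0, at 0.03 and 0.02.

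Among 16 other CDK inhibitors, pocket proteins and E2F factors, none passed in either direction in limma, and their median was -0.09. At an unadjusted p under 0.05, 6 were lower and 1 higher, beside 1073 lower and 799 higher of the 13956 genes tested. Rbl1 (p107), a relative of RB, read 7.99 and 7.95 in the controls and 7.33 and 7.50 in the mutants, a difference of -0.55 (adjusted p = 0.0520). It passed with the filter at the 50th percentile (adjusted p = 0.0353), with array medians centred (0.0284) and with an intensity trend (0.0354). With all array features in the test it did not pass (0.345). The Rbl1 difference was -0.47 without mutant 1 and -0.64 without mutant 2. E2f8, a repressive E2F of dividing cells, differed by -0.43 (adjusted p = 0.0870 in limma). The E2f8 difference was -0.35 without mutant 1 and -0.50 without mutant 2, and its adjusted p was 0.421 with all array features in the test.

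Of 19 E2F target genes of S phase, 1 fell, none rose and 18 did not pass, with a median of -0.29. All 19 had a lower mean in the mutants, beside 6652 of the 13956 genes tested. The groups were apart with the mutants lower for 15 of the 19, and for 21.4% of all genes tested. Mcm3, part of the replicative helicase, went down 2.00-fold, from 8.39 and 8.41 in the controls to 7.32 and 7.48 in the mutants (adjusted p = 0.0185 in limma). Mcm4, another helicase subunit, read 8.39 and 8.41 in the controls and 7.99 and 8.02 in the mutants. Its difference was -0.40 (adjusted p = 0.0536 in limma). Mcm4 passed with the filter at the 50th percentile (adjusted p = 0.0337) and with an intensity trend (0.0413), but not with all array features in the test (0.351). Its difference was -0.38 without mutant 1 and -0.42 without mutant 2.

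In the list of p53 and its target genes, which are relevant because p53 induces several cell cycle inhibitors, 1 of 16 tested rose, none fell and 15 did not pass, with a median of 0.03. The gene of p53 itself, Trp53, was not analysed here, nor were Bax and Cdkn1a, and Fas and Tnfrsf10b lay under the filter on dim genes. Bbc3 (PUMA), a pro-apoptotic protein, rose 1.41-fold, from 7.16 and 7.25 in the controls to 7.74 and 7.67 in the mutants (adjusted p = 0.0428 in limma). That call was lost under 8 of 13 alternatives. Among them were the fits without control 1 and without control 2, with array medians centred (adjusted p = 0.0514) and with all array features in the test (0.319). Zmat3, an RNA-binding p53 target, differed by 0.26 (adjusted p = 0.187 in limma).

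None of 17 genes that control the turnover of D cyclins and CDK inhibitors passed in limma, and their median was 0.02. At an unadjusted p under 0.05, 3 were lower and 1 higher, beside 1073 lower and 799 higher of the 13956 genes tested. The smallest p of the 17 belonged to Cks2, a small CDK-binding subunit. Cks2 read 7.41 and 7.39 in the controls and 6.43 and 6.79 in the mutants (difference -0.79, adjusted p = 0.0720 in limma). Cks2 passed with array medians centred (adjusted p = 0.0466) and with an intensity trend (0.0428), but not with all array features in the test (0.397). The difference of Cks2 was -0.61 without mutant 1 and -0.97 without mutant 2. Its relative Cks1b, a cofactor in the destruction of p27, differed by -0.30 (adjusted p = 0.173 in limma).

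Of 20 transcription factors that act on D cyclin or CDK inhibitor genes, 3 fell, none rose and 17 did not pass, with a median of -0.09. Etv5, an ETS factor downstream of ERK, read 8.71 and 8.61 in the controls and 7.28 and 7.27 in the mutants, and fell 2.62-fold (adjusted p = 0.00538 in limma). Etv4, its close relative, fell 1.65-fold (adjusted p = 0.0226). Foxm1, a driver of genes of G2 and mitosis, read 7.18 and 7.27 in the controls and 6.63 on both mutant arrays, a 1.51-fold fall (adjusted p = 0.0273). Without control 1 and without control 2, Etv5 was still called, while Ccna2, Mcm3, Etv4 and Foxm1 were not (adjusted p between 0.120 and 0.201). With dim genes kept these 4 also missed the threshold (adjusted p between 0.0600 and 0.0765), as they did with the block by like Xist level (between 0.0540 and 0.0704). With all array features in the test, Etv5 (adjusted p = 0.178) and these 4 (between 0.258 and 0.271) all missed it. Myc and Mycn, which bind E-boxes, and Jun, an AP-1 factor, were named after their values were seen and differed by 0.13, 0.01 and -0.13 (adjusted p = 0.549, 0.966 and 0.667 in limma).

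**Figure D4:**
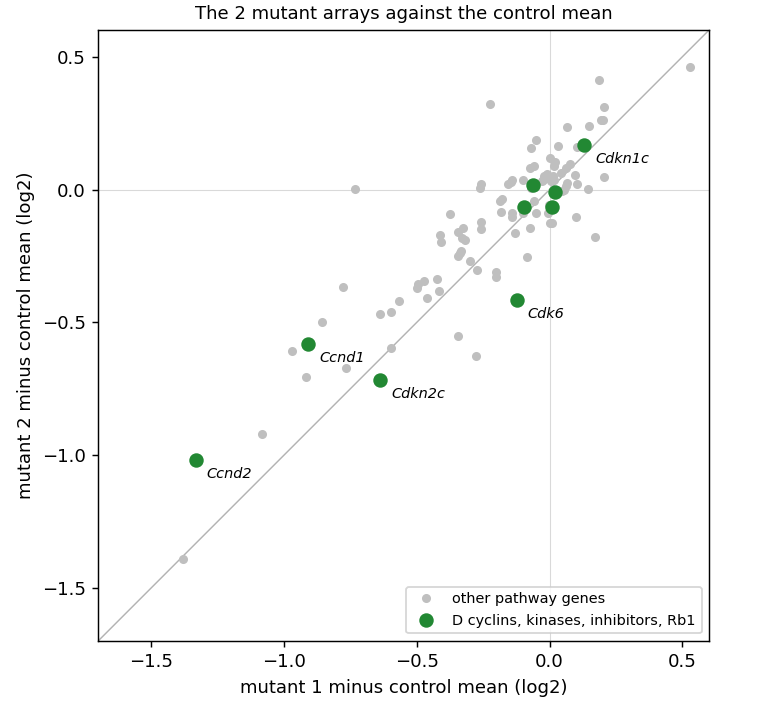
Each mutant array minus the control mean on the log2 scale, mutant 1 on the horizontal and mutant 2 on the vertical axis, for the 9 genes (green) and 99 other pathway genes (grey); the line marks equal values. Ccnd2 lies at -1.33 and -1.02 and Ccnd1 at -0.91 and -0.58, above the line, while Cdkn2c (-0.64 and -0.72) and Cdk6 (-0.12 and -0.42) lie below it.

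The 2 mutant arrays did not lie equally far from the controls. Measured from the control mean, Ccnd2 was at -1.33 in mutant 1 and -1.02 in mutant 2, and Ccnd1 was at -0.91 and -0.58. Cdkn2c was at -0.64 and -0.72, and Cdk6 at -0.12 and -0.42, with mutant 2 the lower. Of the 9 genes, 5 were lower in mutant 1 than in mutant 2, against 74 of the 99 other pathway genes (74.7%) and 64.1% of all genes tested. The array median over the genes tested was itself lower on mutant 1, at 8.46 against 8.53 on mutant 2.

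By the distance of the 4 values after subtraction of each gene's control mean, the genes most like Cdkn2c, which had the smallest p of the 9, were Fcrls, a microglial scavenger receptor (root mean square distance 0.03), Rhbdf1, an inactive rhomboid protein (0.03), and Kif4, a mitotic kinesin (0.04). They differed by -0.66, -0.69 and -0.63. Fcrls read 6.68 and 6.78 in the controls and 6.08 and 6.06 in the mutants. Its mutant values lay under the filter level of 6.16, so it was tested only through its controls. With 4 arrays the distance separates patterns poorly, since 47 genes lay within 0.1 of Cdkn2c.

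Markers of several cell types moved with Ccnd2 and Cdkn2c. The counts below stand beside 1.01% called lower and 0.0143% called higher over all genes tested. Of 6 dividing-cell markers tested, 4 fell and none rose, and their summed level on the log2 scale was 11.25 and 11.13 in the controls against 10.34 and 10.44 in the mutants. Of 10 radial glia markers, 3 fell and none rose (14.13 and 14.14 against 13.25 and 13.44). Of 6 oligodendrocyte precursor markers, 3 fell and none rose (10.50 and 10.49 against 9.00 on both mutants). Of 5 astrocyte markers tested, 2 fell and none rose, and the summed level of all 7 measured was 12.34 and 12.35 in the controls against 10.95 and 11.34 in the mutants. The part of these markers in the differences of Ccnd2, Ccnd1 and Cdkn2c was not tested.

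Other marker lists held no called gene in limma. Over all 13956 genes tested, 1073 were lower and 799 higher at an unadjusted p under 0.05 in limma. Those of intermediate progenitors summed to 11.05 on both controls against 10.81 and 10.97 on the mutants, with 3 of 5 tested lower at an unadjusted p under 0.05. Those of projection neurons summed to 13.46 and 13.44 against 13.57 and 13.52, with 2 of 8 higher at that level. Those of interneurons summed to 12.81 and 12.92 against 12.67 and 12.98, and 1 of 7 was higher at that level. By their means, 5 of the 7 were lower and 2 higher. Microglial markers summed to 9.91 and 9.88 against 9.62 and 9.68, with 3 of 4 tested lower at an unadjusted p under 0.05. Endothelial markers (10.77 on both controls against 10.64 and 10.86) had none of 5 past that level. Pericyte markers summed to 10.58 and 10.50 against 10.51 and 10.70, with 1 of 4 higher at that level. Choroid plexus markers stood out in control 2, at 9.58 against 8.16 in control 1 and 8.09 and 8.32 in the mutants. Alas2, the 1 erythroid marker measured, was at 8.29 and 8.24 against 7.98 and 8.08. No value on this scale is at 0.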

How the data were processed

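RNA of 4 dorsal cortex samples was labelled with biotin for a single-colour whole-transcript array. The authors deposited log2 expression values, made with RMA, per the submitters' processing notes; the RMA version and the genome build are not given in the sources used, and the range of the values gave the log base. RMA equalizes the arrays, so a change shared by most genes is not visible, and differences of dim genes are compressed. The number of arrays limits the precision.

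Of 35557 features, 21789 had 1 gene symbol in the platform annotation, 1621 several and 12147 none. Symbols were updated by Entrez identifier through RefSeq (GRCm38.p6), which matched 21698. The brightest feature per gene was kept (19938 genes, 999 with several features). Genes under the 30th percentile of the mean were left out. The test was limma's (version 3.58.1, in R 4.3.3; lmFit and eBayes, no covariate), with Benjamini-Hochberg adjustment over 13956 genes and 2 residual degrees of freedom plus 3.31 from the prior. The fit was tested on simulated data. Permutation tests used scipy 1.17.1.

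The 10 genes, the lists, the tests and 13 alternative settings were chosen with earlier results of these data known. The text names all 9 measured genes. From each of the 6 other pathway lists it names the called genes (up to 6), filled up to 2 by the smallest p, and it names the 3 genes most like the gene with the smallest p. Marker lists are given by counts and levels. Others are said to be named after their values were seen. Listed genes without a single-symbol feature in the table used, Cdkn1a among them, were not analysed here. Replicate numbers in the titles do not state a pairing.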

Additional observations from a re-analysis of the deposited data

How the results depend on the processing

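The differences of Ccnd1, Ccnd2, Cdk6, Cdkn1b, Cdkn1c and Cdkn2c kept their sign under every alternative that gave a value, while genes with differences near 0 did not: Ccnd3 was at 0.021 after further quantile normalization, and without single arrays it ran from -0.065 to 0.0085, Cdk4 from -0.064 to 0.016 and Rb1 from -0.012 to 0.023. The number of the 9 genes called lower in limma (2) was 0 with dim genes kept and 0 when every feature was tested, 3 of them being lower at an unadjusted p under 0.05 in each case. It was 1 with the filter at the 50th percentile, which removed Cdkn2c, and between 0 and 3 without single arrays. Over all genes, the 141 lower and 2 higher became 15 and 0 with dim genes kept (1114 and 1001 at an unadjusted p under 0.05). They became 217 and 21 with an intensity trend and 0 and 0 when every feature was tested (883 and 678 of the genes' features unadjusted). The higher count was 11 with the filter at the 50th percentile and 1 after quantile normalization. Without single arrays the lower count ran from 9 to 731 and the higher from 0 to 150; an array left alone in its group is assumed to vary like the other group. Apart from what their construction shows (fewer samples, more or fewer genes tested), the cause was not tested.

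Deviations of same-numbered arrays from their group means correlated at -0.16 over genes. With 2 arrays per group, the crossed numbers give 0.16 by construction, so the value cannot show or exclude a shared litter or batch. With the replicate number as a block, 113 genes were lower and 3 higher, and 2 of the 9 genes were called. With the numbers crossed, which joins arrays of like Xist level (11.90 with 11.89, and 5.35 with 4.81) and was added after seeing the data, 17 genes were lower and 0 higher, with 0 of the 9 genes called in limma (919, 535 and 3 at an unadjusted p under 0.05). No detection limit was at hand, so what signal over background limits is unknown.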
